A study of Mus musculus with 3 samples.

Results

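Prostate secretion in the mouse is carried by a few very abundant transcripts, and 6 of them were examined: Pbsn, Tgm4, Msmb, Sbp, Sbpl and Azgp1. They were taken by gene symbol from the 32594 genes listed in each matrix, and all 6 were found in all 3 libraries. Whole prostates of C57BL6 mice were dissociated and their cells captured in droplets (10x Genomics) for RNA sequencing, in which each captured transcript carries a unique molecular identifier (UMI). 1 library came from an Srd5a2 knockout and 2 came from Srd5a2 heterozygotes, called heterozygote 1 and heterozygote 2 here. Srd5a2 encodes steroid 5α-reductase type 2, the enzyme that turns testosterone into dihydrotestosterone, and the series asks what happens to luminal cells without it. All animals were 12 to 15 weeks old by their age label, although the protocol names 12 weeks only. The treatment label reads not applicable for every library, and every tissue was digested for 2 h in a buffer that held collagenase, a rock inhibitor and dihydrotestosterone. Androgen was therefore present during dissociation in both genotypes. Controls were heterozygous, so no library carried a fully wild-type Srd5a2 locus. The animals behind each library, the deleted part of the gene and the cell types it was deleted in are not stated in the labels used here.

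The luminal cells of the prostate secrete the proteins that enter semen. Their secretory genes depend on the androgen receptor, and the lobes of the mouse gland make different mixtures of products. Pbsn encodes probasin, a lipocalin whose promoter is widely used to drive transgenes in prostate epithelium. Tgm4 encodes the prostate transglutaminase, which cross-links seminal vesicle proteins into the copulatory plug. Msmb encodes beta-microseminoprotein, a small cysteine-rich secreted protein. Sbp encodes spermine binding protein, an androgen-dependent product best known from the ventral lobe, and Sbpl encodes a protein like it. Azgp1 encodes zinc-alpha-2-glycoprotein, a secreted protein with an MHC class I-like fold.

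In GENCODE coordinates of mouse build GRCm38, Sbp lies on chromosome 17 (23941672 to 23945607, plus strand) and Sbpl 7476 bp away on the opposite strand (23953084 to 23955274). Pbsn lies on chromosome X (77837901 to 77853623, minus strand) and Tgm4 on chromosome 9 (123034726 to 123067561, plus strand). Msmb lies on chromosome 14 (32142023 to 32158370, plus strand) and Azgp1 on chromosome 5 (137981520 to 137990233, plus strand). The 250 bases upstream of the start site are shown for Pbsn, the classic prostate promoter, and for Sbp and Sbpl, the neighbouring pair with a lower summed level in the knockout (RefSeq, GRCm38.p6, printed 5′ to 3′ on the gene's strand). Capitals mark AGAACA or its reverse complement TGTTCT, a half-site of the androgen receptor element, and TATAAA or its reverse complement TTTATA. The windows are chrX:77853501-77853750 (minus strand) for Pbsn, chr17:23941428-23941677 (plus strand) for Sbp and chr17:23955274-23955523 (minus strand) for Sbpl.
Pbsn: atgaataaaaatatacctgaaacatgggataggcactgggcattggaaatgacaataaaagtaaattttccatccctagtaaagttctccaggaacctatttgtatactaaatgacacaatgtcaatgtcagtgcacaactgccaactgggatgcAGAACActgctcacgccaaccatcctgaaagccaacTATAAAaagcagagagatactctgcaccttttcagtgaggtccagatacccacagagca
Sbp: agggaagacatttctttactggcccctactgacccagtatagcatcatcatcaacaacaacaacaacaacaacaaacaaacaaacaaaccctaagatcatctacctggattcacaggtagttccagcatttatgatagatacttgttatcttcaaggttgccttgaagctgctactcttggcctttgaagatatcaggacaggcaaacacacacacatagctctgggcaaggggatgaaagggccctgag
Sbpl: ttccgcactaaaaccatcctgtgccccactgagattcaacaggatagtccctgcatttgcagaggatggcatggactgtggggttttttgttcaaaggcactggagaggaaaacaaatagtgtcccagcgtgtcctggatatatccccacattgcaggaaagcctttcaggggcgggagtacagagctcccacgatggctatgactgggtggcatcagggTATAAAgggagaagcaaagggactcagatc
The Pbsn window held 1 half-site, which began 95 bases before the start, and 1 TATAAA, 59 bases before it. Sbpl held a TATAAA 30 bases before its start and Tgm4, not printed, held one at the same distance. The printed Sbp window held neither motif, while the window of another Sbp start site, at chr17:23941668-23941917, held 1 half-site 64 bases before that start. The half-site was found in 6233 of 32851 promoter windows of 300 bases, and TATAAA or its complement in 4473 of them (13.6%). Such matches describe letters in a window only.

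Sbp and Sbpl may not be fully separated by reads, judged from their sequences alone. Their main transcripts (Sbp-201 and Sbpl-201) were 94.0% identical over 813 aligned bases, and 415 of the 841 windows of 30 bases in Sbpl (49.3%) also occur in a transcript of Sbp. Sbpl values are therefore uncertain. There were 1.57 Sbpl UMIs for every 10000 Sbp UMIs in the knockout (exact 95% interval 1.14 to 2.11), 1.87 in heterozygote 1 (1.67 to 2.09) and 2.25 in heterozygote 2 (2.04 to 2.47). Whether Sbpl UMIs are reads of Sbp placed on its neighbour was not tested.

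The matrices held 129015041, 47601747 and 100801564 UMIs in 13273, 5000 and 13866 barcodes, in the order knockout, heterozygote 1 and heterozygote 2. After filters, 9149, 4539 and 9687 cells were kept, with a median of 4439, 6910 and 4867 UMIs per cell. The smallest barcode total was 586, 2466 and 500 UMIs, so heterozygote 1 lacked shallow barcodes. The knockout shared 15 barcodes with heterozygote 1 and 57 with heterozygote 2, and the heterozygotes shared 16. Fibroblasts, where Srd5a2 was seen, held 1, 29 and 44 Srd5a2 UMIs, which follows the labels. All 16 secretory luminal markers were detected in the cells of that name, at a summed 23881, 46179 and 40982 CPM (UMIs per 1000000 UMIs of the same cells). Seminal vesicle transcripts were found in secretory luminal cells at 2.15%, 0.364% and 1.29% of their UMIs, and their part in the results below was not tested. Differences are log2 changes, knockout minus heterozygote, ± standard error, from edgeR's quasi-likelihood test on UMIs summed per library. The standard error was derived as the size of the change divided by the square root of that test's F statistic. With 1 against 2 libraries there is 1 residual degree of freedom. The spread of the single knockout library is taken to equal that of the heterozygotes, and p-values measure only the spread between these libraries. In all fits but that of ionocytes this spread was shared by all genes. A p-value there rests on the shared spread more than on a gene's own difference between the heterozygotes. CPM values use plain totals and are not scaled by transcript length, so levels are compared between libraries and cell groups rather than between genes.

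Over whole libraries, the 6 genes took a smaller part of the RNA in the knockout. These totals include seminal vesicle cells, of which the knockout library held 735 at a median of 53388 UMIs and the heterozygotes 6 and 0, and their part in the shares and ranks was not tested. Together they made 0.962% of all knockout UMIs, 5.79% in heterozygote 1 and 4.96% in heterozygote 2. By UMI count Sbp ranked 33rd among all genes in the knockout, 3rd in heterozygote 1 and 4th in heterozygote 2. Pbsn ranked 18th, 9th and 5th, Tgm4 28th, 12th and 10th, and Msmb 89th, 23rd and 22nd. Azgp1 was of middle rank (978, 275 and 281), and Sbpl was rare, with 44, 313 and 429 UMIs in whole libraries. Library totals mix cell types: secretory luminal cells were 12.4% of knockout cells (exact 95% interval 11.7 to 13.1%), against 44.3% (42.8 to 45.7%) and 39.5% (38.6 to 40.5%). Those cells held 83.5%, 91.3% and 81.3% of the Pbsn UMIs of all cells, 94.0%, 98.0% and 87.3% of the Msmb UMIs and 92.7%, 95.6% and 86.0% of the Sbp UMIs. In a sum over whole tissue, fewer cells of a type and less RNA per cell cannot be told apart, so the genes were next followed inside luminal clusters.

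Cells were clustered without these 6 genes, and 7 of 38 clusters were named secretory luminal. Of those, 5 had cells of every library at good depth. Clusters 1, 2 and 3 were the largest. Cluster 1 was led by genes such as Ms4a5 and Tcaf3, cluster 2 by C1s2 and Pnliprp1, and cluster 3 by Banf2 and Scin. Cluster 13 was led by Defb50 and Wfdc3, and cluster 16 by Spink5 and Crabp1. Each cluster had its own mixture of secretory transcripts, which is a description, because clusters are made from these cells.

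Pbsn was high in clusters 1, 2, 3 and 13 and low in cluster 16. In cluster 1 it reached 23067 CPM in the knockout, 28287 in heterozygote 1 and 31592 in heterozygote 2. In cluster 13 the values were 28193, 22152 and 33558 CPM, and in cluster 16 they were 422, 439 and 1324 CPM. After thinning to 1000 UMIs per cell, 99.6% of knockout cells in clusters 1, 2 and 3 held a Pbsn UMI, 99.7% in heterozygote 1 and 99.96% in heterozygote 2 (unthinned 100%, 99.9% and 100%). Fibroblasts, which should not make it, held one in 65.0%, 69.4% and 94.9% of thinned cells. Their median depth was 2706, 3044.5 and 1790 UMIs against 14317, 9800 and 11742 in clusters 1, 2 and 3. The share of cells with a UMI was thus high even where such a gene should not be made, and levels are used instead.

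Tgm4 followed a narrower pattern. It was high in clusters 1, 2 and 3, with 13542, 19228 and 24267 CPM in cluster 1 and 16043, 21173 and 22929 CPM in cluster 3. Cluster 13, rich in Pbsn, held only 399, 535 and 947 CPM of Tgm4, and cluster 16 held 216, 258 and 679 CPM. Cells high in Pbsn were therefore of 2 kinds, with Tgm4 and without it. In each of these 5 clusters the knockout had the lowest Tgm4 level of the 3 libraries.

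Msmb marked cluster 13, at 51084 CPM in the knockout, 50209 in heterozygote 1 and 56202 in heterozygote 2. That cluster held 85.6%, 88.4% and 75.4% of the Msmb UMIs of all cells. Cluster 1 held 1334, 1727 and 1057 CPM, and clusters 2 and 3 held between 26.3 and 234 CPM over the 3 libraries. In cluster 1 the median cell held 1, 1 and 3 Msmb UMIs and the upper quartile was 11, 5 and 4, below a mean of 14.0 or more in each library.

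Sbp was highest in cluster 16. It made 256432 CPM there in the knockout, 345132 in heterozygote 1 and 269438 in heterozygote 2, which is 25.6%, 34.5% and 26.9% of the UMIs of those cells. The median cluster 16 cell held 1828.5, 4629.5 and 3335.5 Sbp UMIs, with a wide middle range in every library (quartiles 232.5 and 8409 in the knockout). Cluster 16 held 92.1% of the Sbp UMIs of all knockout cells, 92.9% in heterozygote 1, and 1125397 of 1705982 in heterozygote 2. In heterozygote 2 a further 15.4% lay in cluster 12, a group of 756 shallow cells in that library and of 8 and 36 cells in the knockout and heterozygote 1. Cluster 12 was led by Nupr1 and Spink1 and had a median of 3251 UMIs. Sbpl followed Sbp, with 37.2, 62.0 and 56.7 CPM in cluster 16 and under 2 CPM in clusters 1, 2, 3 and 13.

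Azgp1 was the most even of the 6. It lay between 301 CPM (cluster 2, knockout) and 946 CPM (cluster 13, heterozygote 1) in all 5 clusters. In cluster 13 it stood at 636, 946 and 882 CPM, in cluster 2 at 301, 400 and 378 CPM. Cluster 16, which had almost no Pbsn or Tgm4, held 493, 627 and 518 CPM of it. Proximal luminal cells, a population next to the urethra usually poor in secretory transcripts, held 24.6, 73.6 and 102 CPM of Azgp1 in their main cluster.

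**Figure D1:**
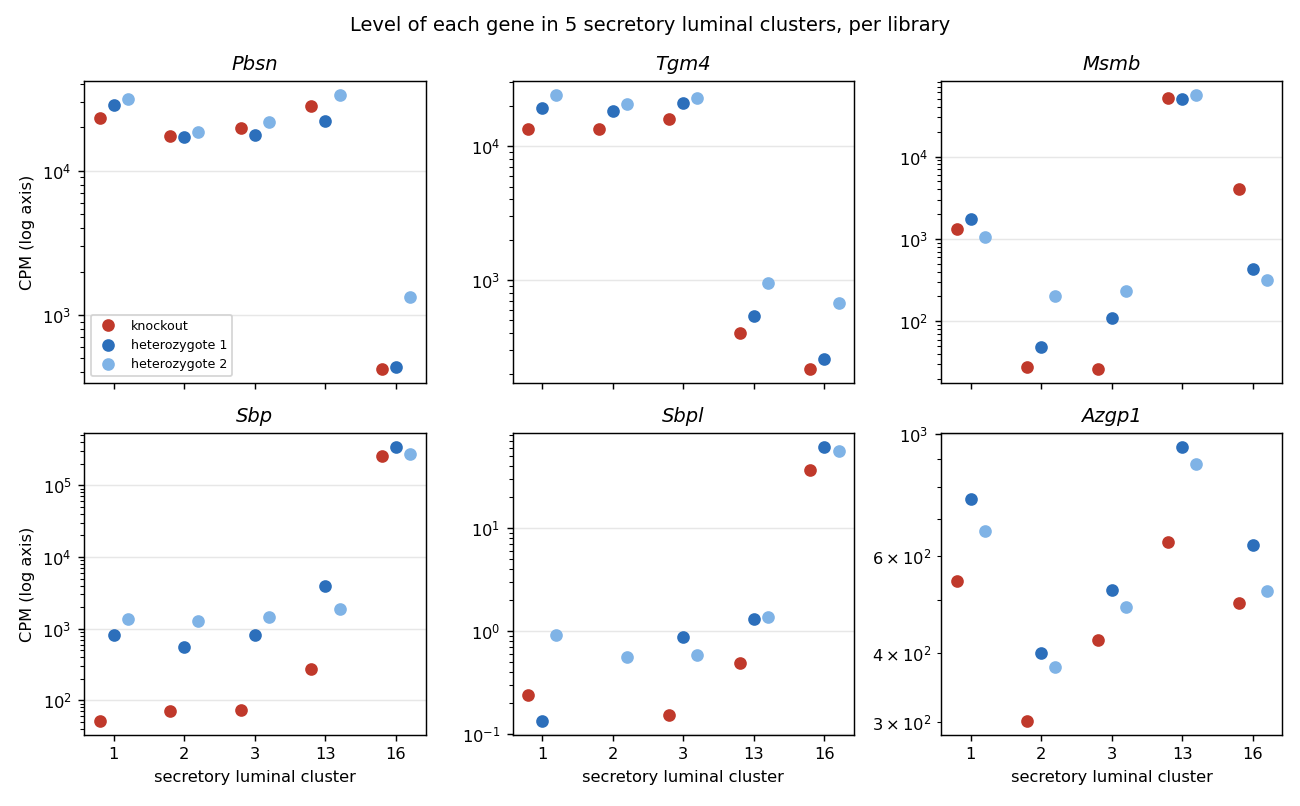
Level of each gene in CPM (log axis) in secretory luminal clusters 1, 2, 3, 13 and 16, with 1 point per library, and Sbpl points at 0 left out. Sbp sits at 256432 to 345132 CPM in cluster 16, Msmb at 50209 to 56202 CPM in cluster 13, and Tgm4 at 13390 to 24267 CPM in clusters 1, 2 and 3 against 216 to 947 CPM in clusters 13 and 16.

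Sbp-rich cells were scarcer in the knockout. Cluster 16 was 0.525% of knockout cells (48 of 9149, exact 95% interval 0.387 to 0.695%), 5.64% in heterozygote 1 (4.99 to 6.35%) and 2.68% in heterozygote 2 (2.37 to 3.03%). As a share of secretory luminal cells it was 4.23% (3.14 to 5.57%), 12.7% (11.3 to 14.3%) and 6.79% (6.01 to 7.63%). The knockout was lowest on both counts, and the heterozygotes also differed from each other beyond counting error. Cluster 13, rich in Msmb, stood at 12.3%, 12.2% and 10.3% of secretory luminal cells. No test across libraries was made of these shares, whose intervals cover counting error only.

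An unnamed cluster, 31, held 99 knockout cells and 3 and 4 heterozygote cells, with Kcnk3, Hdac9 and Spink1 among its leading genes. Its knockout cells had a median of 2949 UMIs and 28950 CPM of Sbp. Clusters 16 and 31 together were 1.61% of knockout cells (1.36 to 1.89%), 5.71% of heterozygote 1 cells (5.05 to 6.42%) and 2.73% of heterozygote 2 cells (2.41 to 3.07%). With cluster 12 added as well, the shares were 1.69%, 6.50% and 10.5%. The knockout was lowest in each of these shares of all cells. Set against the number of secretory luminal cells, clusters 16 and 31 together came to 12.96% in the knockout (147 beside 1134 cells), 12.89% in heterozygote 1 and 6.895% in heterozygote 2, so the knockout was not lowest. With cluster 12 added it was lowest again, at 13.7%, 14.7% and 26.6%. Among cells of at least 2466 UMIs, clusters 16 and 31 came to 10.6%, 12.9% and 6.66%. The place of the knockout within secretory luminal cells thus depended on which of these clusters were counted, and cluster 31 is not itself among the secretory luminal cells.

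Counting cells by the transcript itself, without clusters, also put the knockout lowest as a share of all cells, with the heterozygotes in the other order. Sbp took at least 5% of UMIs in 49 knockout cells (0.536%, 0.396 to 0.707%), in 268 cells of heterozygote 1 (5.90%, 5.24 to 6.63%) and in 683 of heterozygote 2 (7.05%, 6.55 to 7.58%). That threshold was set after the data were seen and cuts through a range, with 24, 16 and 208 cells between 4% and 6% of UMIs. Of the 49 knockout cells, 31 lay in cluster 16 and 16 in cluster 31. In heterozygote 1, 222 of 268 lay in cluster 16. In heterozygote 2, 219 of 683 lay in cluster 16, 228 in cluster 12 and 171 in cluster 23. Cluster 23 (0, 20 and 286 cells) was named proximal luminal by its markers, yet held 7.79% of the Sbp UMIs of heterozygote 2 cells. Over all proximal luminal cells the 16 secretory luminal markers summed to 2520, 4286 and 33302 CPM. In heterozygote 2 the name thus covers cells rich in secretory transcripts, which were not counted as secretory luminal. Among cells of at least 2466 UMIs, the lowest total in heterozygote 1, the shares with at least 5% Sbp were 0.696%, 5.90% and 7.49%. Cells with at least 1% of UMIs from Pbsn were 13.8%, 38.4% and 54.8% of all cells, those with as much Tgm4 9.35%, 33.5% and 39.6%, and those with as much Msmb 1.40%, 7.20% and 6.96%. As a share of all cells the knockout was lowest for all 4 genes, as it was for secretory luminal cells as a whole. Within secretory luminal cells, 926 of 1134, 1522 of 2009 and 3330 of 3829 were that rich in Pbsn, with the knockout between the heterozygotes. For Tgm4 (733, 1353 and 2832 cells), Msmb (106, 317 and 505) and Sbp (32, 248 and 460) the knockout share was lowest there too.

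**Figure D2:**
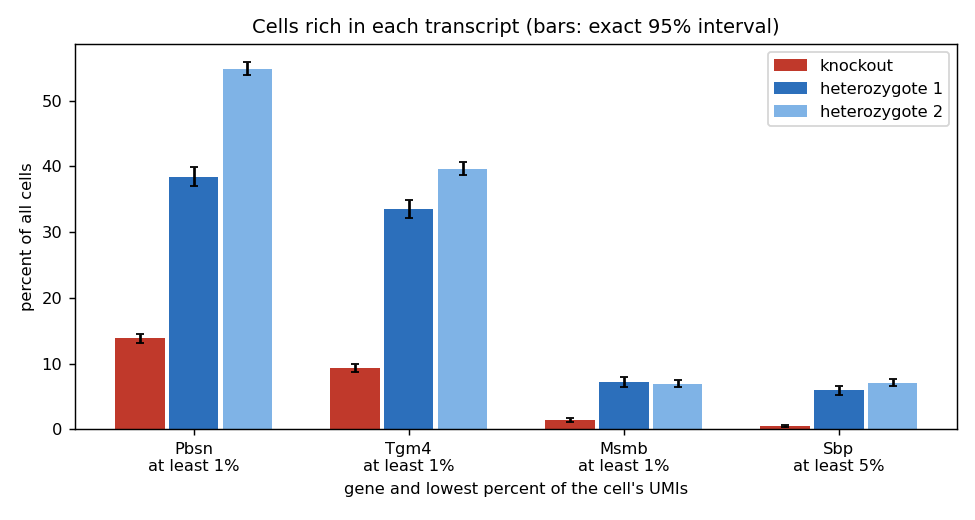
Percent of all cells in each library in which Pbsn, Tgm4 or Msmb takes at least 1% or Sbp at least 5% of the cell's UMIs, as bars with exact 95% intervals. The knockout bar is the lowest of the 3 for each gene, at 13.8% for Pbsn and 0.536% for Sbp.

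Summed over all secretory luminal cells, 2 of the 6 genes were called lower in the knockout, at adjusted p under 0.05, against 1.2% of all 16312 genes tested being called lower and 2.03% called in either direction. Sbp stood at 12888 CPM in the knockout, 64985 in heterozygote 1 and 32314 in heterozygote 2, a log2 change of -1.94 ± 0.36 (edgeR adjusted p = 2.08e-05), or 3.84-fold lower. The knockout was below both heterozygotes, which differed from each other by 1.13 on the same scale. Sbpl, with 38, 283 and 318 UMIs, differed by -2.23 ± 0.38 (adjusted p = 1.65e-06). DESeq2 made the Sbpl call too (adjusted p = 0.00534) and did not call Sbp (-1.93, adjusted p = 0.93). With the RNA found outside the epithelium subtracted, the values were -2.09 and -2.38 and edgeR called neither, nor any of 13611 genes (329 at an unadjusted p under 0.05). When clusters 1, 2, 3, 13 and 16 were given equal weight, a mean chosen after seeing the data, the Sbp difference shrank to -0.29 and that of Sbpl to -0.71.

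The other 4 genes were not called in secretory luminal cells. Pbsn differed by -0.05 ± 0.33 (adjusted p = 0.999), with the knockout between the heterozygotes, and Msmb by -0.25 ± 0.34 (adjusted p = 0.999). Tgm4 differed by -0.32 ± 0.34 and Azgp1 by -0.46 ± 0.33 (adjusted p = 0.999 and 0.926), and the knockout was below both heterozygotes for Tgm4, Msmb and Azgp1. Of all genes tested, 34.2% lay below both in the knockout. These standard errors are wide, and a change of less than about 2-fold would often not have been called. In simulated luminal sums of 16766 genes, 21 of 50 genes lowered 2-fold and all 50 lowered 4-fold were recovered. The simulated spread was fixed and equal for all genes, and only well-counted genes were changed, so recovery in the real sums may be lower. Taking secretory and proximal luminal cells together called the same 2 genes and gave Sbp -1.92 ± 0.38, where 1.07% of genes were called lower, and there DESeq2 called both.

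Inside single clusters the picture for Sbp was divided. Within cluster 16, the cells richest in it, Sbp differed by -0.27 ± 0.43 (adjusted p = 0.996), with the knockout's level within 0.03 of heterozygote 2 and 0.53 below heterozygote 1 on the log2 scale. This cluster has 48 knockout cells, fewer than the 50 set for a fit, so its fit was added after seeing the data. Outside it, Sbp was called lower in each cluster fitted. The change was -4.35 ± 0.40 in cluster 1, -3.58 ± 0.37 in cluster 2, -3.86 ± 0.38 in cluster 3 and -3.33 ± 0.41 in cluster 13 (adjusted p of 3.67e-13 or less with edgeR, 0.0337 or less with DESeq2). These are levels 20.4-, 12.0-, 14.6- and 10.1-fold lower, at 51.4, 807 and 1364 CPM in cluster 1 and 272, 3898 and 1897 CPM in cluster 13. With spread RNA subtracted the log2 values were -5.20, -3.16, -4.09 and -3.37, and no gene was called in any of these clusters, where 263 to 366 genes had an unadjusted p under 0.05.

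In clusters 1, 2 and 3 those low Sbp levels were close to what cells outside the epithelium held. Fibroblast, smooth muscle, macrophage, T or NK cells held a mean of 0.762, 5.77 and 10.6 Sbp UMIs per cell. Cells of cluster 1 held 0.991, 8.90 and 18.1, those of cluster 2 1.18, 6.09 and 17.2, and those of cluster 3 1.15, 9.18 and 17.8. That is 1.05 to 1.71 times the level outside the epithelium in these clusters and libraries, at a median depth of 14317, 9800 and 11742 UMIs against 3493, 3727 and 2333. Sbp was also called lower in basal cells, fibroblasts and smooth muscle, by -3.67, -3.55 and -3.42. The subtraction above took the mean per cell of all non-epithelial classes, endothelial cells included, without scaling to depth. No gene at all was called after it, so it cannot show the part of such RNA in the cluster values. That part was not tested. Cluster 13 held 5.18, 8.31 and 2.31 times the outside level, while its median cell held 1, 6 and 11 Sbp UMIs.

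The other genes were set against the same background. Pbsn in clusters 1, 2, 3 and 13 stood 24.7 to 129 times above the level outside the epithelium, and in cluster 16 only 1.34 to 2.39 times. Tgm4 stood 53.9 to 169 times above it in clusters 1, 2 and 3, and 1.32 to 3.76 times in clusters 13 and 16. Msmb stood 419 times or more above it in cluster 13, but 1.33 to 1.6 times in cluster 2 and 1.36 to 3.05 times in cluster 3, with 8.14 to 83.9 times in cluster 1. In cluster 16 Msmb stood 254, 18.2 and 2.99 times above it in the knockout, heterozygote 1 and heterozygote 2. Azgp1 stood 26.3 to 235 times above it in all 5 clusters.

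In clusters 1, 2, 3 and 13 Pbsn, Tgm4 and Azgp1 did not pass the test, nor did Msmb in clusters 1 and 13. Pbsn differed by -0.33 ± 0.22 in cluster 1, 0.04 ± 0.35 in cluster 2, 0.09 ± 0.33 in cluster 3 and 0.10 ± 0.36 in cluster 13 (adjusted p 0.712 or more). Msmb in cluster 13 differed by 0.02 ± 0.37 (adjusted p = 0.997), with the knockout between the heterozygotes. Tgm4 differed by -0.63 ± 0.24 in cluster 1 (adjusted p = 0.148), -0.46 ± 0.36 in cluster 2 and -0.37 ± 0.34 in cluster 3 (adjusted p = 0.799 and 0.952). For Tgm4 the knockout lay below both heterozygotes in all 5 clusters, and for Azgp1 in 4 of 5, on the fit's scale (with plain CPM, Azgp1 was lowest in the knockout in all 5). On the fit's scale 36.4%, 35%, 35.3%, 35.9% and 38.6% of all genes lay below both in clusters 1, 2, 3, 13 and 16. Azgp1 changes ran from -0.44 in cluster 13 to -0.17 in cluster 3, none called. The fits in different clusters share libraries, so their directions are not independent of each other.

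Msmb was called in opposite directions where it was scarce. It was lower in clusters 2 and 3, by -2.10 ± 0.30 (adjusted p = 5.49e-10) and -2.60 ± 0.32 (adjusted p = 2.79e-13), at levels near those outside the epithelium. In cluster 2 it differed by -0.75 from heterozygote 1 and by -2.73 from heterozygote 2, and in cluster 3 by -1.98 and -3.02. DESeq2 made neither call (adjusted p = 1.00 and 0.272). It was higher in cluster 16, at 3977 CPM against 426 and 320, by 3.40 ± 0.45 (adjusted p = 2.7e-11), and DESeq2 called it as well. There, 6 of the 48 knockout cells held 3700 of its 3738 UMIs, and the level without cells of at least 1% Msmb was 45.8, 129 and 194 CPM, with the knockout lowest. Counting members called in either direction gave 1 of 5 tested in clusters 1 and 13, 2 of 5 in clusters 2 and 3 and 1 of 6 in cluster 16. Of all genes, 3.15%, 1.4%, 2.54%, 1.58% and 0.574% were called in clusters 1, 13, 2, 3 and 16.

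**Figure D3:**
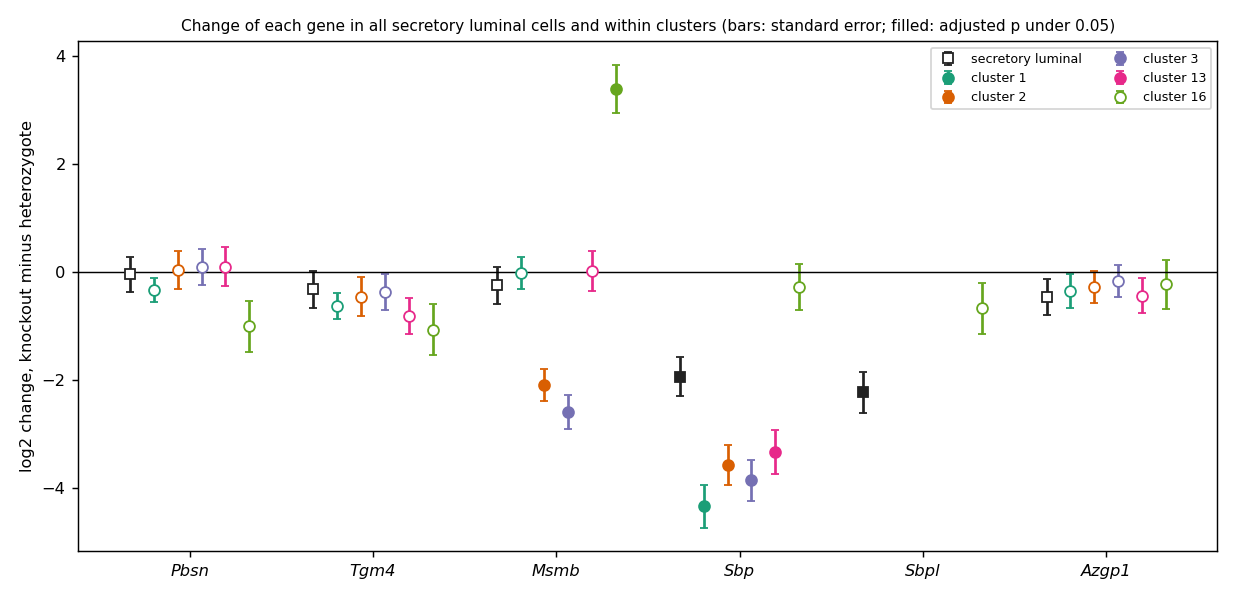
Log2 change of each gene, knockout minus heterozygote, in all secretory luminal cells (squares) and within clusters (circles), with standard errors and filled symbols where the edgeR adjusted p is under 0.05. Sbp is at -1.94 overall and -0.27 within cluster 16, and Msmb runs from -2.60 in cluster 3 to 3.40 in cluster 16.

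Within cluster 13, Pbsn and Msmb varied together from cell to cell in the knockout. Over its 139 knockout cells, each thinned to 1000 UMIs, Spearman's rho was 0.72, against 0.15 over 245 cells and 0.26 over 385 cells in heterozygotes 1 and 2. The lower quartile of the knockout cells held 17 Pbsn and 10.5 Msmb UMIs at medians of 324 and 459. In heterozygote 1 the lower quartiles were 89 and 165 UMIs, and in heterozygote 2 they were 151 and 275. So some knockout cells of this cluster were low in both genes. Cells of a library share its free RNA and depth range, and no test was made.

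Pbsn RNA was found in nearly every droplet, and that of the rarer genes in fewer. Pbsn was seen in 97.4%, 98.9% and 99.8% of all barcodes, and Sbp in 59.1%, 98.7% and 99.6%. For Tgm4 the values were 86.1%, 93.3% and 99.1%, and for Msmb 30.4%, 43.6% and 87.1%. Azgp1 was seen in 16.9%, 51.8% and 50.4%, and Sbpl in 0.196%, 3.22% and 2.11%. In barcodes under 500 genes the 6 genes took 1.10% of UMIs in the knockout and 3.54% in heterozygote 2, and heterozygote 1 had only 2 such barcodes. Outside the epithelium and without the endothelial cluster, cells held a mean of 3.46, 5.56 and 10.2 Pbsn UMIs, 1.54, 3.33 and 5.20 of Tgm4, and 0.306, 0.397 and 1.72 of Msmb. The knockout was lowest and heterozygote 2 highest for each. For every 100 Pbsn UMIs there were 22.1 Sbp UMIs in the knockout and 104 in both heterozygotes.

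In other cell types several of these transcripts were lower in the knockout. In smooth muscle 5 of 5 genes that passed the filter on low counts were called lower, where 2.07% of all genes were. Pbsn stood there at 595, 779 and 2027 CPM (-1.12 ± 0.32, adjusted p = 0.0169) and Sbp at 133, 973 and 2118 CPM (-3.42 ± 0.36, adjusted p = 4.4e-18). Basal cells had 3 of 5 genes called lower (Sbp, Msmb and Azgp1) where 1.41% of genes were, and so did fibroblasts, where 0.869% were. Ionocytes, rare acid-secreting cells, had Sbp and Msmb called lower where 0.467% of genes were.

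For every gene but Sbp the difference in basal, fibroblast, smooth muscle and ionocyte sums lay mainly against heterozygote 2. Over those sums the fitted difference from heterozygote 1 ran from -0.90 to 0.18, and that from heterozygote 2 from -3.06 to -1.55. In basal cells Pbsn stood at 1284, 1299 and 4489 CPM, which is 0.10 above heterozygote 1 and -1.72 against heterozygote 2 on the fit's log2 scale. Azgp1 in basal cells differed by -0.13 from heterozygote 1 and by -1.96 from heterozygote 2. Sbp in basal cells stood at 193, 1374 and 3871 CPM, -2.71 and -4.23 against the heterozygotes, so the knockout was far below both. DESeq2 called Sbp in smooth muscle and ionocytes (adjusted p = 0.0382 and 0.000841) and no other member in basal, fibroblast, smooth muscle, endothelial or ionocyte sums.

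Endothelial cells stood apart. Msmb was called higher in the knockout, at 3493, 141 and 754 CPM (3.27 ± 0.33, adjusted p = 2.2e-20), while Sbp was lower (-3.71 ± 0.41). Each call is 1 of 5 genes tested, where 0.84% of all genes were called higher and 0.735% lower. Of the 3829 knockout Msmb UMIs, 74.7% lay in 18 of 288 cells, and without them the level was 963 CPM. With at least 1000 genes asked of each cell, Msmb changed sign to -2.23 and was not called. DESeq2 did not call it (adjusted p = 1.00). Pbsn reached a mean of 24.8, 20.1 and 13.3 UMIs per cell there, above the mean of the other non-epithelial cells in each library.

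**Figure D4:**
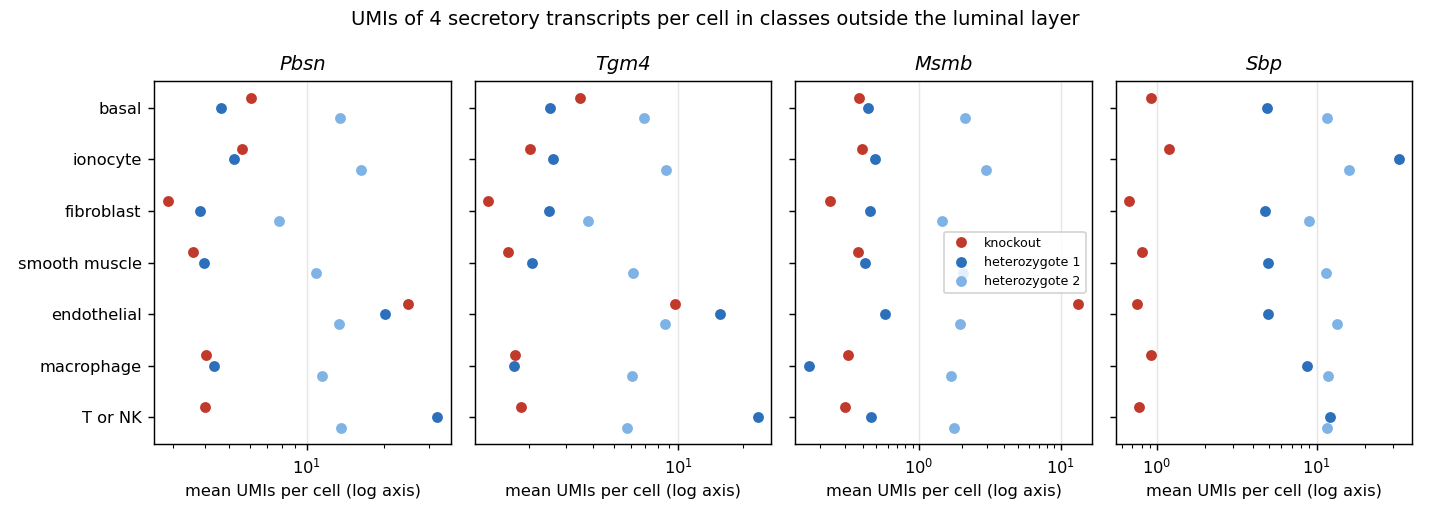
Mean UMIs per cell (log axis) of Pbsn, Tgm4, Msmb and Sbp in 7 cell classes outside the luminal layer, with 1 point per library. Knockout Sbp lies between 0.67 and 1.19 UMIs per cell in every class shown, below both heterozygotes, while knockout Msmb stands at 13.3 in endothelial cells.

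Other secretory products of the prostate changed in both directions. Their list was chosen with earlier results of these data known, and some of its genes were also markers that named the cells. The number called is therefore a description and no independent result. Of 20 listed genes, 19 were tested in secretory luminal cells, 6 were called lower and 1 higher (1.2% of all genes were called lower and 2.03% in either direction), with a median log2 change of -0.47 against -0.02 for all genes. Spink1, a secreted trypsin inhibitor, differed by -2.01 ± 0.37, Spink5, another protease inhibitor, by -1.90 ± 0.36 and Mmp7, a matrix protease, by -1.64 ± 0.36. Scgb2b7, a secretoglobin, had 0, 707 and 1731 UMIs and was at least 212-fold lower against a floor of 3 UMIs in the knockout. Crisp1 (0, 105 and 153 UMIs) and Tff3 (0, 43 and 169) were at least 24.6- and 17.2-fold lower on that floor. Pnliprp1, a pancreatic lipase-related gene and a marker of cluster 2, was higher (1.64 ± 0.31). Defb50, a defensin gene that leads cluster 13, differed by -0.05 ± 0.33, and Ren1, renin, by -0.28 ± 0.34, neither called.

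Within clusters the list varied as well. Mmp7 was called lower in clusters 1, 2, 3 and 16, at 1511, 4809 and 4922 CPM on the fit's scale in cluster 1 (-1.69 ± 0.30). Spink1 and Spink5 were called lower in clusters 1, 2, 3 and 13 and not in cluster 16, the pattern of Sbp. In cluster 1 Defb50 was higher (1.01 ± 0.26) and Wfdc3, Ren1 and C1s2 were lower. Wfdc3 was also lower in clusters 2 and 3, and Ren1 in cluster 13. Several of these calls were at low levels on the fit's scale. Ren1 stood at 43.3, 111 and 255 CPM in cluster 1 and 32.6, 103 and 118 in cluster 13, against 3612 or more in clusters 2 and 3. Wfdc3 stood at 83.2 CPM or less in clusters 1, 2 and 3, against 6863 or more in cluster 13. Mmp7 in cluster 16 stood at 13.9, 56.8 and 115 CPM. Spink5 stood at 29.0 CPM or less in clusters 1, 2, 3 and 13, against 2896 or more in cluster 16. Spink1 stood at 1552 CPM or less in clusters 1, 2, 3 and 13, against 107778 or more in cluster 16. The part of spread RNA in each of these calls was not tested. Clu, clusterin, was higher in clusters 2 and 3 (1.65 ± 0.27 and 0.98 ± 0.26). Pnliprp1 was higher in clusters 2 and 3. Crisp1 was lower in clusters 1 and 2. Tff3 was called lower in clusters 13 and 16, where each call rested on UMIs of 1 heterozygote, and Scgb2b7 in cluster 16. In all, 8 of 15, 7 of 14, 6 of 14, 4 of 16 and 3 of 16 genes tested were called in clusters 1, 2, 3, 13 and 16, where 3.15%, 2.54%, 1.58%, 1.4% and 0.574% of all genes were.

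Of 8 regulators of luminal secretion, 1 was called in secretory luminal cells, where 2.03% of all genes were. Creb3l1, a transcription factor of the secretory pathway, stood at 4.19, 19.3 and 18.8 CPM (-2.18 ± 0.34) and was lower in clusters 1, 2 and 3 too. In those clusters 3.15%, 2.54% and 1.58% of all genes were called in either direction. Foxa1 differed by -0.52 ± 0.31, Hoxb13 by -0.48 ± 0.32 and Xbp1 by 0.10 ± 0.32, none called. The median of the 8 was -0.50. This list too was chosen with earlier results known, and Creb3l1 and Hoxb13 were also among the markers that named the cells. These list calls, like all others here, come from edgeR without subtraction of spread RNA.

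Genes whose level over 16 cluster profiles followed each member most closely were named by Pearson's r on log2 CPM, among 4174 genes. The profiles share libraries and depth, so r is a description without a p. The knockout entered these profiles only with clusters 1, 2, 3 and 13. Cluster 16, richest in Sbp and Sbpl, entered from the heterozygotes only, and clusters 12 and 35 from heterozygote 2 only. For Sbp and Sbpl, r therefore could not separate genes of those clusters from genes high in heterozygotes only. Companions of a gene that is lower in the knockout were selected, at least in part, for being lower there. The calls of such companions are no independent result. For Sbp they were Nupr1 (r = 0.98), Spink1, Spink5, Cbr2 and Gm37240, and in secretory luminal sums all 5 were called lower in the knockout. For Sbpl they were Csta1 (0.99), Kcnk3, Nxpe4, Scgb2b20 and Hdac9, of which 4 were called lower and Csta1 differed by -0.95 ± 0.33 without a call. For Tgm4 they were 9530053A07Rik (r above 0.99), Gsdma, Pate9, Pgm2l1 and Gm37223. For Pbsn they were Rnase1 (0.98), Ptges, Sec63, Ndufa3 and Ezr, and for Azgp1 Sec11c (0.94), Slc7a4, 1500011B03Rik, Tmem205 and 1110008P14Rik. In secretory luminal sums the edgeR adjusted p was 0.432 or more for each of these companions of Tgm4, Pbsn and Azgp1. Within clusters, 9530053A07Rik was called lower in cluster 1 (log2 difference -0.995 ± 0.22, SE, adjusted p = 0.000782) and Pgm2l1 in cluster 2 (-1.11 ± 0.30, adjusted p = 0.0108). For Msmb they were Spc25 (0.95), Defb50, Apof, Mme and Ndrg2, of which Spc25 was called lower (-1.29 ± 0.34) at 4.35, 11.4 and 9.92 CPM.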

How the data were processed

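Whole prostates of 1 Srd5a2 knockout and 2 Srd5a2 heterozygote libraries were profiled by droplet sequencing. The authors deposited raw UMI counts per gene and barcode, and the submitters' processing notes name Cell Ranger 3.1.0 and the build mm10. Cell calling and the chemistry are not described in the labels used here. From these counts, barcodes were kept that showed 500 genes or more and no more than 15% mitochondrial UMIs. Doublets were scored against simulated pairs, and 8.35%, 3.79% and 8.50% of barcodes were removed in the knockout, heterozygote 1 and heterozygote 2. Depth was a median of 4439, 6910 and 4867 UMIs per cell.

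Cells were clustered (2000 variable genes, 30 components, Leiden resolution 1) with scikit-learn 1.9.0, igraph 0.11.9 and leidenalg 0.10.2, without the 6 genes and without genes abundant in barcodes under 500 genes, 72 genes in all. A cluster was named from at least 3 detected markers with 1 of its own among its top 10 genes. That last number was set after clusters were seen. It left out of the luminal class cluster 15 (160, 69 and 368 cells) and cluster 31 (99, 3 and 4 cells), both with luminal markers detected. UMIs were summed per library and class and tested with edgeR 4.0.16 (TMM, low-count filter, quasi-likelihood, Benjamini-Hochberg adjusted p under 0.05) in R 4.3.3, after a test on simulated data. Classes needed 50 cells in each library, and the fit of cluster 16 was added. In all fits but that of ionocytes, edgeR estimated infinite prior degrees of freedom, so the spread was shared by all genes. Other settings included DESeq2 1.42.0, other scaling, filters, clusterings and subtraction of spread RNA, the mean UMIs per droplet of non-epithelial cells of the same library. Intervals are exact (Clopper-Pearson, 95%) and cover counting error only.

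The genes described, the list of other secretory products and the list of regulators were chosen with earlier results of these data known. All members of both lists and the 5 genes most alike to each of the 6 were open to naming. No protein sequence was used, and Msmb had no promoter entry. The values of 1 regulator are not reported here.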

Additional observations from a re-analysis of the deposited data

Results flagged for a closer look

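Msmb stood on opposite sides of both heterozygotes in different cell groups. In cluster 16 the knockout was above both, with a log2 change of 3.40, and in endothelial cells it was above both with 3.27. In cluster 3 it was below both, at -2.60. Every heterozygote library lay on the other side in each of these groups, and the difference between the groups was not tested. The 2 high values rested on few cells, 6 of 48 and 18 of 288, as described above, and the endothelial value changed sign when at least 1000 genes were asked of each cell.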

How the results depend on the processing

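With DESeq2 the number of genes called was 113 in luminal and 133 in secretory luminal cells, 35, 12, 38, 14 and 19 in basal, fibroblast, smooth muscle, endothelial and ionocyte sums, and 95, 60, 58, 28 and 22 in clusters 1, 2, 3, 13 and 16. With spread RNA subtracted, edgeR called 0 genes in luminal and secretory luminal cells and 0 in each of the 5 clusters (355, 329, 288, 263, 303, 366 and 259 at an unadjusted p under 0.05). The prior degrees of freedom there fell from infinite to between 2.28 and 5.01. Requiring 1000 genes per cell gave 108 basal, 8 endothelial (203 unadjusted) and 188 ionocyte calls. Keeping doublets gave 316 fibroblast and 231 ionocyte calls. Median-ratio factors gave 113 smooth muscle and 200 ionocyte calls. Without the low-count filter there were 180 ionocyte calls, and at Leiden resolution 2.0 there were 198. The counts under the settings used for the report were 306 in luminal, 331 in secretory luminal, 279 in basal, 95 in fibroblast, 322 in smooth muscle, 90 in endothelial and 99 in ionocyte sums. They were 394, 296, 205, 154 and 59 in clusters 1, 2, 3, 13 and 16.

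With spread RNA subtracted, Sbp differed by -2.08 in luminal and -2.09 in secretory luminal cells and Sbpl by -2.38 in both (edgeR adjusted p = 1.00). DESeq2 gave Sbp -1.93 in secretory luminal cells (adjusted p = 0.93). Equal weight of 5 clusters, chosen after seeing the data, gave -0.29 for Sbp and -0.71 for Sbpl. Leaving out 1 heterozygote at a time, with no test, Sbp ran from -2.31 to -1.38 in luminal and from -2.40 to -1.27 in secretory luminal cells, and Sbpl from -2.504 to -1.83 and from -2.58 to -1.70. Adding cluster 31, also chosen after seeing the data, left both genes called. Signs changed for Pbsn at Leiden resolution 2.0 (0.025 in luminal and 0.0022 in secretory luminal cells), for Azgp1 in fibroblasts without heterozygote 2 (0.079, against -2.30 without heterozygote 1), for Pbsn in cluster 2 (-0.021) and Msmb in cluster 13 (-0.013) with spread RNA subtracted, and for Msmb in cluster 13 without the low-count filter (-0.038). In endothelial cells, 1000 genes per cell gave Pbsn -1.50, Msmb -2.23 and Azgp1 -2.59, and Azgp1 was -0.33 with doublets kept and -0.011 at Leiden resolution 0.5. Leaving out heterozygote 2 also gave positive values, with no test, for Pbsn in luminal (0.127), secretory luminal (0.040), basal (0.099) and fibroblast (0.038) sums and for Tgm4 in basal cells (0.179). Leaving out heterozygote 1 did so for Msmb in cluster 1 (0.404) and for Sbp and Azgp1 in cluster 16 (0.033 and 0.032), and gave negative values for Pbsn in clusters 3 and 13 (-0.013 and -0.167) and Msmb in cluster 13 (-0.054). The cause of these changes was not tested. No paired analysis was possible because the labels give no replicate numbers and there is 1 knockout library.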
